A study of Schizosaccharomyces pombe with 6 samples.

Results

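The genes described here are 64 *S. pombe* genes whose names mark them as genes of meiosis and sporulation. They were chosen by symbol (*meu*, *mde*, *mcp*, *mei*, *mes*, *rec*, *spo*, or *isp* followed by a number) from the 5184 genes of a deposited RNA-seq table, after genes in given subtelomeric clones, *meu22*+, and *isp5*+ were left out. The rule itself uses no measured value, but the members were chosen with earlier results of these data known. They comprise 17 *meu*, 12 *spo*, 11 *rec*, 8 *mde*, 8 *mcp*, 4 *isp*, and 3 *mei* genes, and *mes1*+. The name alone does not make a meiosis-specific gene: *mcp60*+, which encodes the mitochondrial chaperonin Hsp60, and *rec14*+, which encodes a subunit of the cytoplasmic Ski complex, match the pattern too.

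The libraries compare 3 WT cultures with 3 cultures of the *htb1-K119R* mutant, in which Lys119 of H2B is replaced by Arg and the monoubiquitinated form of H2B is absent. *htb1*+ is the only H2B gene of this yeast. In the study's strain list both strains are haploid. WT is *h*+ *ade6-M216 leu1-32 ura4-D18* (strain TK8), and *htb1-K119R* is *h*- *ura4-D18* with the mutant gene marked by kanMX6 (strain YGF226), so mating type, *ade6*, *leu1*, and the marker differ along with the histone and cannot be told apart from it. The labels describe the material only as whole cells of each genotype, the study calls the repeats biological and independent, and the medium and growth phase are not given in the sources used here.

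Fission yeast cells grow as haploids and enter meiosis only after nitrogen starvation and mating. The transcription factor Ste11 starts the program, the RNA-binding protein Mei2 drives entry once the Pat1 kinase is inhibited by Mei3, and the forkhead factor Mei4 then switches on the genes of the meiotic divisions and of spore formation. Growing cells keep the program off at the level of transcription and also destroy leaked meiotic transcripts: the protein Mmi1 binds a short motif in these RNAs and hands them to the nuclear exosome, whose nuclease is Rrp6. Ubiquitinated H2B is laid down over transcribed genes and is linked to elongation by RNA polymerase II.

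The sequences that matter here are the sites that these factors read. Mei4 recognizes GTAAACA and, in its second form, GTAAATA, so the 7 bases of each match (or their reverse complement) are in capitals below, within 10 bases on each side. They were searched on both strands from 250 bases before to 50 bases after the RefSeq transcript start, in ASM294v3, and each is printed on the strand of its gene, with the position of its first base counted from that start. Sites of 3 genes that were higher in *htb1-K119R* are shown first, then those of *meu29*+, *mcp1*+, and *spo4*+, which were lower, *spo4*+ by less than 2-fold. Last are those of *mei4*+ itself, which did not pass the test.
meu7 position −189, chrII:4274838-4274864, minus strand: atagaatgttTATTTACgccgacatat
meu7 position −154, chrII:4274803-4274829, minus strand: gaattttattTGTTTACagaaataagc
meu7 position −75, chrII:4274724-4274750, minus strand: gcagtcctttTGTTTACgcctaaaaat
spo6 position −97, chrII:3102990-3103016, plus strand: gcgaggctttTGTTTACaaacaatact
spo6 position −56, chrII:3103031-3103057, plus strand: aaatatttgaGTAAACAaacaaaatca
mde4 position −61, chrII:2632746-2632772, plus strand: gaattttgttTGTTTACgtatcttgaa
meu29 position −71, chrI:2530039-2530065, plus strand: gtgaattcggTGTTTACatcggtatat
meu29 position −6, chrI:2530104-2530130, plus strand: gttaccaaaaGTAAACAactaccagcc
mcp1 position −20, chrI:919893-919919, plus strand: aagtttagagGTAAATAaaccaagttc
spo4 position −191, chrII:3826977-3827003, plus strand: tggcatcattTGTTTACattttcattt
spo4 position −98, chrII:3827070-3827096, plus strand: gtttggcgaaGTAAACAaacaaacaaa
mei4 position −184, chrII:1472874-1472900, plus strand: ttgtattattTATTTACtaaatttata
mei4 position −87, chrII:1472971-1472997, plus strand: tccttgcttgTGTTTACatatttacgg
mei4 position −79, chrII:1472979-1473005, plus strand: tgtgtttacaTATTTACggtattttct
The Mei4 letters stand before genes that were higher, genes that were lower, and genes that did not pass, and a match is a description of the sequence, not evidence of binding. No match lies in the window of *mde7*+ or *spo5*+, which were also higher.

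Mmi1 recognizes UNAAAC in RNA, written TNAAAC in DNA. The densest stretch of at most 30 bases of each gene shown is given on its own strand, with the motifs in capitals. These genes were picked because *spo5*+ was higher in *htb1-K119R*, whereas *mei4*+, *rec8*+, and *mcp5*+ did not pass the test.
spo5, chrII:2538100-2538129, plus strand: tacTCAAACTTAAACcaacaTAAAACctgt
mei4, chrII:1473913-1473942, plus strand: tagtTTAAACtcaaatattgTTAAACcccc
rec8, chrII:2570149-2570178, plus strand: tgaaaagcTCAAACcaTCAAACaatactcc
mcp5, chrII:899377-899406, plus strand: caagtcaTTAAACtttTCAAACcgactaaa
The window of *spo5*+ lies outside its coding exons and holds 3 motifs, and the other 3 windows lie in coding exons and hold 2 each. Over the whole transcript *spo5*+ has 14 motifs, *rec8*+ 15, *mcp5*+ 19, and *mei4*+ 11.

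Library totals lay between 15987167 and 20701391 counts, and a floor of 3 counts, set for counting error alone, came to 0.145 to 0.188 CPM, which are counts scaled to library size. WT replicate 3 stood apart from the other WT libraries (chi-square per gene of 83.0 and 61.9 against 8.49 between WT replicates 1 and 2), and it gave the lowest WT value for 23, the middle for 17, and the highest for 15 of the tested genes of the set. *htb1*+ itself had 1360 to 1854 CPM in WT, against 1346 to 1456 CPM in the mutant, on the scale of edgeR's TMM factors, which correct for library composition and apply to all CPM values below (log2 fold change −0.26, adjusted *P* = 0.26), which is no check of a point mutation. Markers of both mating types were counted in both strains. The 8 *h*- cell markers summed to 68.3 to 85.4 CPM in WT, against 89.5 to 104 CPM in the mutant, with *mat1-Mm* at 0 in all libraries. The 3 matched of 5 *h*+ cell markers summed to 22.9 to 28.7 CPM in WT, against 32.6 to 40.4 CPM in the mutant. Both sums were higher in *htb1-K119R* without overlap, but single markers were mixed. Of 5 tested *h*- markers only *mam3*+ (0.55) passed the FDR and 4 overlapped, with *mat1-Mc* at −0.17, and of the 3 *h*+ markers *map2*+ (1.13) and *map4*+ (0.67) passed while *map3*+ (−0.23) lay below WT. Their part in the results below was not tested.

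Of the 64 genes, 55 had enough counts to be tested. With edgeR's quasi-likelihood test, 7 of them were called higher and 4 were called lower in *htb1-K119R*, where a call needs both a change over 2-fold and an FDR (Benjamini-Hochberg adjusted *P* over all genes) under 0.05. The higher ones were *mde7*+, *spo6*+, *meu7*+, *mde4*+, *spo5*+, *spo2*+, and *spo15*+, and the lower ones were *mcp1*+, *meu32*+, *meu29*+, and *mcp3*+. The called shares were 12.7% higher and 7.27% lower, beside 4.71% and 3.64% of all 4969 genes tested. *mde7*+ and *spo6*+ had enough counts to be tested only through the mutant libraries, so the higher share is partly set by that filter. *meu32*+, with 9 counts in mutant replicate 2, would not have passed it on the mutant libraries alone, so the lower share is partly set too. Without the fold threshold, 9 genes of the set were higher and 8 were lower (16.4% and 14.5%), beside 18.6% and 19.3% of all genes, so the set passed the FDR no more often than other genes did. The lower count was 5 without *htb1-K119R* replicate 3. The median log2 fold change of the 55 was 0.14 (0.14 also with *mde7*+ at its lower bound), beside −0.0058 for all genes, and it was 0.012 after the correction for GC content and length and 0.31 with library totals in place of TMM. In bulk RNA a change in the number of cells that make a transcript and a change in its level per cell cannot be told apart. All 11 calls were made again in each of the 6 fits that left out 1 library.

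In 19 of the 55 genes every *htb1-K119R* library lay above every WT library (34.5%, beside 25.0% of all genes), in 13 it lay below (23.6%, beside 23.9%), and in 23 the genotypes overlapped. Among the members nearest the fold threshold, *mcp3*+ was just inside at −1.08 on the log2 scale, and *spo4*+ and *mde6*+ were just outside at −0.89 and 0.84.

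**Figure D1:**
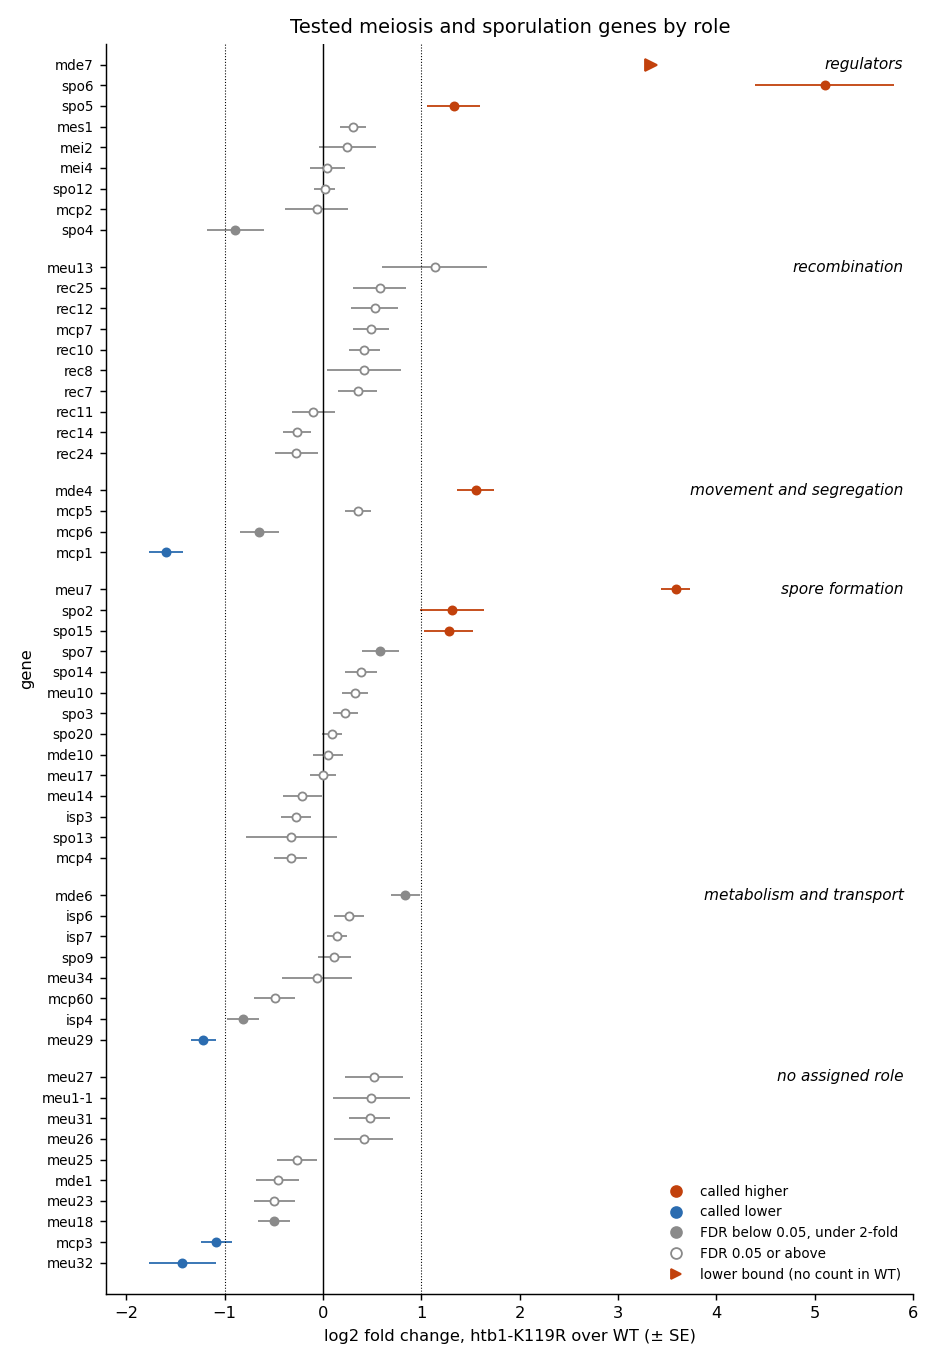
Log2 fold change (*htb1-K119R* over WT) of the 55 tested genes, grouped by role, from edgeR (3 libraries per genotype). Bars are a standard error derived from the F statistic. Dotted lines mark 2-fold change, the triangle is the lower bound of *mde7*+ (no count in WT), and most genes lie near 0, with *meu7*+ at 3.58 and *mcp1*+ at −1.59 among the exceptions.

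The regulators of meiosis are 11 genes, of which 9 were tested. The 3 calls among them were all higher (33.3%, beside 4.71% of all genes), and *spo4*+ passed the FDR in the other direction. For *mde7*+ and *spo6*+, both among the 3, a listed gene covers the whole gene on the other strand, as described further on. Both also had enough counts to be tested only through the mutant libraries, so the 33.3% is partly set by that filter. Of the genes of meiotic entry named here, *mei2*+ and *mei4*+ did not pass. *mei2*+, whose product drives entry into meiosis, had 2.28, 2.08, and 3.96 CPM in WT replicates 1, 2, and 3 and 4.09, 3.35, and 2.74 CPM in *htb1-K119R*. The genotypes overlapped (log2 fold change 0.25 with SE 0.287 and adjusted *P* = 0.524). *mei4*+, which encodes the forkhead factor, had 5.85, 4.52, and 5.08 CPM in WT, against 5.41, 5.11, and 5.37 CPM in the mutant. These values overlapped closely (log2 fold change 0.04 with SE 0.178 and adjusted *P* = 0.87). *mei3*+, which encodes the Pat1 inhibitor, was counted only 3, 3, and 10 times in WT, against 8, 6, and 7 times in the mutant and was not tested. *mes1*+, whose product restrains the anaphase-promoting complex so that the second division can follow, had 47.1, 53.3, and 37.6 CPM in WT, against 57.0, 58.9, and 54.3 CPM in the mutant. It did not overlap but missed the threshold (log2 fold change 0.31 with SE 0.13 and adjusted *P* = 0.086). It passed in 6 of 16 alternatives, with an adjusted *P* of 0.00781 to 0.223 over all of them.

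Spo4 and Spo6 form a Dbf4-dependent kinase of the second meiotic division, and their transcripts differed in opposite directions. *spo6*+, the regulatory subunit, was counted 0, 0, and 4 times in WT, against 32, 75, and 58 times in the mutant. All mutant libraries stood far above WT, and the pooled counts, scaled to library size, gave a ratio of 36.0 (exact 95% counting interval 13.8 to 134). The adjusted *P* was 0.000342, and the size of the ratio rests on the 4 counts of WT replicate 3, without which no WT count remained. *spo4*+, the kinase subunit, had 3.04, 3.37, and 4.58 CPM in WT, against 2.59, 1.32, and 2.07 CPM in the mutant. It fell by 0.89 on the log2 scale (SE 0.287, adjusted *P* = 0.0324) without overlap. This is under 2-fold, and the FDR below 0.05 was lost in 7 of 16 alternatives, with an adjusted *P* of up to 0.212.

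*mde7*+ encodes an RNA-binding protein whose gene was named for its dependence on Mei4. It had no count in any WT library and 30, 26, and 56 counts in the 3 *htb1-K119R* libraries (adjusted *P* = 0.000389). Against the mean floor of 3 counts per WT library, the mutant mean was at least 10.1-fold higher. *spo5*+ encodes a meiotic RNA-binding protein, and it had 0.835, 1.08, and 1.20 CPM in WT, against 2.82, 2.42, and 2.74 CPM in the mutant. The mutant libraries were all higher (log2 fold change 1.33 with SE 0.269 and adjusted *P* = 0.00353), at counts of only 11 to 60 per library. *mcp2*+, a Pumilio-family RNA-binding gene, and *spo12*+, whose product acts at mitotic exit, did not pass (−0.06 and 0.02).

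The genes of recombination mostly had estimates above 0, but they were small. Of 14 genes 10 were tested, and 0 of them passed an FDR of 0.05 in either direction with edgeR. At an unadjusted *P* below 0.05, 2 were higher and 0 were lower. DESeq2, which tested all 14, gave 1 higher gene (*mde2*+), and limma gave 2 of 8 higher on log2(FPKM + 1) and 4 of 8 on log2(FPKM + 0.1), where FPKM are fragments scaled to gene length and library size. In these limma fits the median of all genes was itself 0.150 and 0.170. No share of all genes was computed for the unadjusted *P*, DESeq2, or limma, so these counts are not read as a trait of the group. The estimates ran from −0.27 to 1.14, with 7 positive and 3 negative, and a median of 0.42. Of all genes tested, 2462 were positive and 2507 negative, with a median of −0.0058. *meu13*+ and *mcp7*+ encode the Hop2 and Mnd1 proteins, which act together in the pairing of homologs. *meu13*+ had only 9, 4, and 5 counts in WT, against 16, 21, and 10 counts in the mutant (log2 fold change 1.14 with SE 0.536 and adjusted *P* = 0.117, but 1.73 and 0.0445 without WT replicate 1). Its normalized values overlapped between genotypes, and over the alternatives its estimate went down to 0.73 and its adjusted *P* up to 0.349. *mcp7*+ had 4.18, 3.59, and 4.17 CPM in WT, against 5.22, 6.26, and 5.37 CPM in the mutant, which did not overlap (log2 fold change 0.49 with SE 0.184 and adjusted *P* = 0.0573). It passed in 4 of 16 alternatives, with 0.77 after the correction for GC content and length (adjusted *P* = 0.00722). Among the other alternatives the estimate went down to 0.39 and the adjusted *P* up to 0.182.

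The enzyme that breaks DNA in meiosis is Rec12, the homolog of Spo11. *rec12*+ had 2.43, 2.51, and 2.31 CPM in WT, against 2.82, 4.39, and 3.25 CPM in the mutant, all higher but not past the threshold (log2 fold change 0.53 with SE 0.24 and adjusted *P* = 0.105, but 0.0414 after the correction for GC content and length). *rec10*+, which encodes a component of the linear elements along meiotic chromosomes, had 8.43, 7.11, and 7.06 CPM in WT, against 9.31, 11.2, and 9.61 CPM in the mutant (log2 fold change 0.42 with SE 0.157 and adjusted *P* = 0.058, but 0.0442 without WT replicate 1). Over the alternatives, *rec12*+ went down to 0.31 (adjusted *P* up to 0.366) and *rec10*+ to 0.31 (up to 0.198). *rec8*+, which encodes the kleisin of meiotic cohesin, was barely counted in either genotype, at 0.683, 0.790, and 0.702 CPM in WT, against 0.940, 0.659, and 1.29 CPM in the mutant. It overlapped (log2 fold change 0.42 with SE 0.373 and adjusted *P* = 0.403), although *orc1*+, which starts 107 bases downstream on the same strand, was higher by 3.61 on the log2 scale. *rec14*+, of the Ski complex, was the most abundant of the group per length (10.2 FPKM in WT) and had an estimate of −0.26, and *rec24*+ had the lowest estimate, −0.27.

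Among 5 genes of nuclear movement and chromosome segregation, 4 were tested and 3 passed the FDR, 1 higher and 2 lower (25% and 50%, beside 18.6% and 19.3% of all genes). *mde4*+ encodes a subunit of the monopolin complex, which clamps microtubule sites at the kinetochore, also in mitosis. It had 3.42, 4.24, and 4.01 CPM in WT, against 10.6, 13.9, and 9.92 CPM in the mutant. Every mutant library was more than double the highest WT library (log2 fold change 1.55 with SE 0.189 and adjusted *P* = 0.000163). *mcp1*+, which encodes a microtubule-binding protein, had 8.96, 10.3, and 8.80 CPM in WT, against 2.87, 3.40, and 3.0 CPM in the mutant. Its WT level was 3.02-fold that of the mutant, the largest decrease among the 55 tested genes (log2 fold change −1.59 with SE 0.175 and adjusted *P* = 8.36e-05). *mcp6*+, whose product organizes microtubules at the spindle pole body for the horsetail movement of the meiotic nucleus, had 7.90, 5.60, and 6.03 CPM in WT, against 4.61, 3.90, and 3.87 CPM in the mutant. It fell by 0.65 on the log2 scale (SE 0.198, adjusted *P* = 0.0258), and 9 of 16 alternatives did not keep an FDR below 0.05. *mcp5*+, which encodes the cortical anchor of dynein in the same movement, went from 14.1 ± 1.88 to 18.2 ± 0.926 CPM (SD, *n* = 3), without overlap (log2 fold change 0.36 with SE 0.136 and adjusted *P* = 0.061, but 0.0119 without WT replicate 3). Its adjusted *P* reached 0.18 in another alternative.

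Spore formation is the largest group, with 15 genes, 14 tested, 3 called higher (21.4%, beside 4.71% of all genes), and *spo7*+ higher under 2-fold. *meu7*+ encodes an alpha-amylase homolog (alpha-amylase 4). It was counted 741, 722, and 1013 times in WT, against 11671, 11092, and 12341 times in the mutant. This is 56.3, 51.8, and 41.8 CPM against 549, 609, and 637 CPM, with a wide gap between genotypes and a fold change of 12 (log2 fold change 3.58 with SE 0.15 and adjusted *P* = 1.85e-07). It is by far the best-counted of the called genes, and its estimate stayed between 3.47 and 3.79 over all alternatives. The genes on its sides did not follow it: *SPBC16A3.14*, 308 bases away, and *SPBC16A3.12c*, 569 bases away, had log2 fold changes of −0.48 and −0.73 and passed the FDR as lower. With *mcp60*+ left out, the other 63 genes took 0.0997% to 0.121% of the WT counts and 0.188% to 0.192% of the *htb1-K119R* counts. With *meu7*+ left out as well, the shares were 0.0951% to 0.116% and 0.121% to 0.130%.

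Spo15, Spo2, and Spo13 build the modified spindle pole body from which the forespore membrane grows. *spo15*+ had 2.28, 1.44, and 1.45 CPM in WT, against 4.0, 4.56, and 3.77 CPM in the mutant, all higher (log2 fold change 1.28 with SE 0.251 and adjusted *P* = 0.00301). It is a long gene, and after a correction for GC content and length its log2 fold change was 0.80, below 2-fold. *spo2*+ had 1.37, 0.646, and 0.867 CPM in WT, against 2.26, 2.80, and 2.01 CPM in the mutant (log2 fold change 1.31 with SE 0.325 and adjusted *P* = 0.0101). Its counts were small, 9 to 21 in WT and 39 to 51 in the mutant, but did not overlap. *spo13*+ did not pass, with an estimate of −0.32. *spo7*+, which is annotated as an exchange factor for ARF proteins at the meiotic spindle pole body, had 6.68, 5.03, and 4.46 CPM in WT, against 8.37, 7.74, and 7.85 CPM in the mutant (log2 fold change 0.58 with SE 0.187 and adjusted *P* = 0.0319). The correction for GC content and length brought it to 0.18, and 6 of 16 alternatives did not keep an FDR below 0.05.

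The other members of this group make the forespore membrane and the spore wall. *spo3*+ (0.23), which encodes a membrane protein needed for the forespore membrane, and *meu10*+ (0.32), which encodes a cell surface protein needed for the spore wall, did not overlap between genotypes but missed the threshold (adjusted *P* = 0.171 and 0.0778). *meu10*+ passed without WT replicate 1 (adjusted *P* = 0.0392), but over the alternatives its estimate went down to 0.08 and its adjusted *P* up to 0.746. *meu14*+ (−0.21), whose product marks the leading edge of that membrane, and *isp3*+ (−0.27), whose product coats the mature spore, overlapped (adjusted *P* = 0.426 and 0.182). Without WT replicate 3, *isp3*+ was at −0.42 and passed (adjusted *P* = 0.00651), and with library totals it was at −0.09 (adjusted *P* = 0.735). *mcp4*+, another forespore membrane gene, was lowest by estimate, at 9.71 ± 1.74 CPM in WT, against 7.71 ± 0.329 CPM in the mutant (log2 fold change −0.33, adjusted *P* = 0.143). *spo20*+, which encodes a phospholipid transfer protein that growing cells also need, had 89.1 FPKM in WT and did not pass either (0.09).

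The 8 genes of metabolism and transport include members that growing cells use. *meu29*+, annotated as a predicted regulator of calcium transport, had 38.1, 36.8, and 30.5 CPM in WT, against 14.7, 15.6, and 15.1 CPM in the mutant. It fell 2.32-fold with little spread in the mutant (log2 fold change −1.21 with SE 0.123 and adjusted *P* = 5.15e-05). *isp4*+, which encodes an oligopeptide transporter, had 24.0, 22.1, and 16.6 CPM in WT, against 12.2, 13.1, and 10.3 CPM in the mutant (log2 fold change −0.81 with SE 0.166 and adjusted *P* = 0.00371), and the genotypes did not overlap. *mde6*+, a predicted muskelin homolog, was higher at 12.4, 14.8, and 13.2 CPM against 6.98, 8.11, and 7.52 CPM in WT (log2 fold change 0.84 with SE 0.145 and adjusted *P* = 0.00147). Both genes beside it were higher by a like amount, *pun1*+ by 0.85 and *ubr11*+ by 0.97. *isp6*+, which encodes a vacuolar serine protease needed for sporulation, was abundant at 320 to 451 CPM in WT, against 446 to 520.5 CPM in the mutant, which overlapped (log2 fold change 0.26 with SE 0.15 and adjusted *P* = 0.188). With library totals it was 0.45 and passed (adjusted *P* = 0.00264), but its adjusted *P* reached 0.481 in another alternative. *mcp60*+ had 3674 ± 753 CPM in WT, against 2615 ± 217 CPM in the mutant (SD, *n* = 3), which overlapped too (log2 fold change −0.49 with SE 0.206 and adjusted *P* = 0.0826). It passed as lower in 5 of 16 alternatives, among them DESeq2 (adjusted *P* = 0.0132) and the fit without WT replicate 3 (adjusted *P* = 4.55e-05). In the others its adjusted *P* went up to 0.256.

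The genes with no assigned role are 11, most of them specific to fission yeasts, and the 3 of the 10 tested that passed the FDR were all lower. *meu32*+ had 2.89, 2.30, and 2.02 CPM in WT, against 1.08, 0.494, and 1.03 CPM in the mutant (log2 fold change −1.43 with SE 0.338 and adjusted *P* = 0.008). Its mutant counts were only 23, 9, and 20, so it was not tested when 10 counts in every library were required. The mutant libraries alone would not have met the count filter, so the shares of this group are partly set by that filter. *mcp3*+, for a coiled-coil protein, had 9.57, 9.19, and 9.58 CPM in WT, against 4.51, 4.61, and 4.24 CPM in the mutant. Its libraries differed hardly at all within a genotype, and it was lower (log2 fold change −1.08 with SE 0.155 and adjusted *P* = 0.000428). *meu18*+, the most abundant of this group per length (5.94 FPKM in WT), went from 10.9 ± 1.54 to 7.75 ± 0.51 CPM (log2 fold change −0.50 with SE 0.159 and adjusted *P* = 0.0316), and 8 of 16 alternatives did not keep an FDR below 0.05. These are 30% of the group, beside 19.3% of all genes. In 6 of the 10 the mutant libraries lay below all WT libraries (60%, beside 23.9% of all genes). *meu27*+ had the highest estimate (0.52, adjusted *P* = 0.185).

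**Figure D2:**
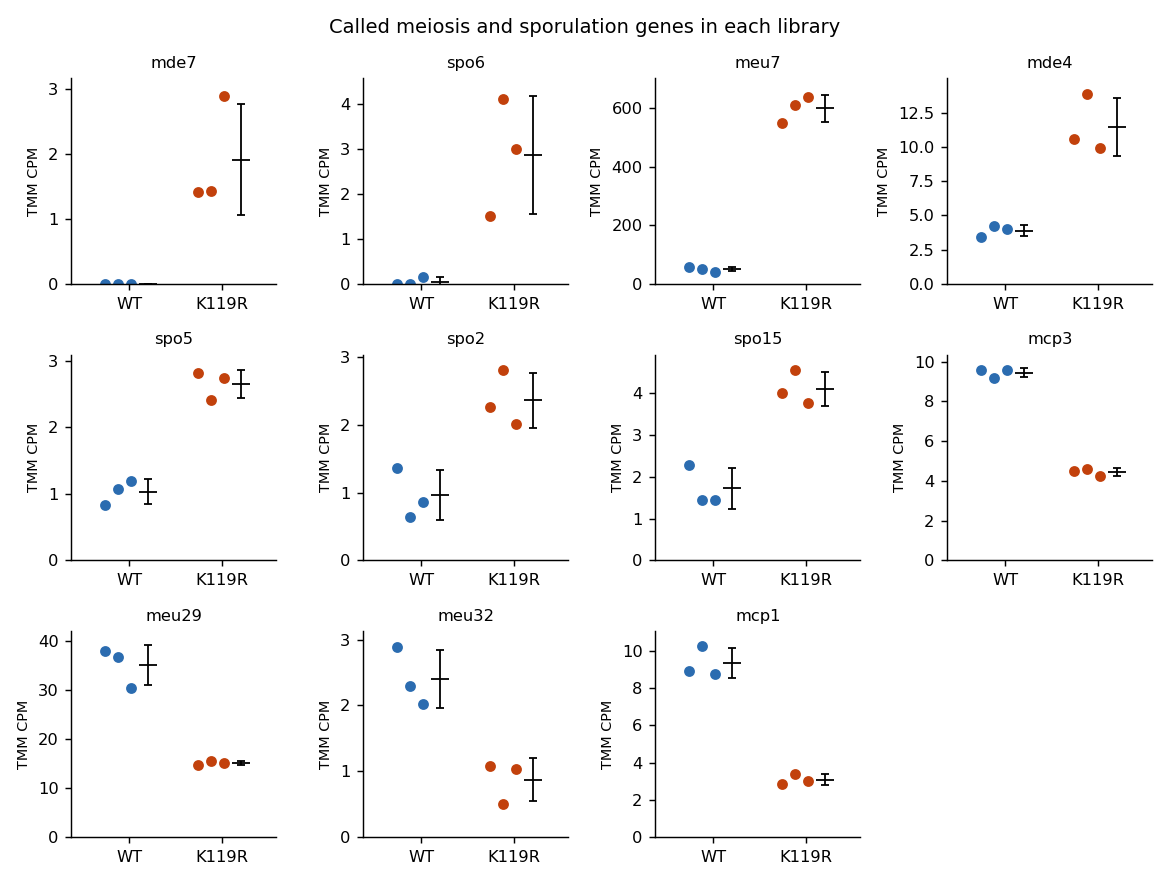
TMM-normalized CPM of the 11 called genes in each library (points, replicates 1 to 3 from left to right, on linear axes from 0 that differ between panels), with the mean ± SD at the side. The genotypes do not overlap in any of the 11 panels, and *meu7*+ is at 549 to 637 CPM in *htb1-K119R* against 41.8 to 56.3 CPM in WT.

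The 9 genes with too few counts to test had at most 15 counts in any WT library. *mde2*+, whose product is needed to form meiotic DNA breaks, had 0 counts in all WT libraries and 7, 17, and 3 counts in *htb1-K119R*. The mutant mean was 2.50-fold the mean floor of 3 counts per WT library, with replicate 2 the highest. Replicate 3 of the mutant, at 0.155 CPM, lay below the floors of WT replicates 1 and 2 (0.228 and 0.215 CPM). *meu15*+, of no assigned role, had 0, 1, and 1 counts in WT, against 9, 8, and 4 counts in the mutant, a ratio of 9.16 (exact 95% counting interval 2.24 to 80.6). *rec15*+, another gene of break formation, had 0, 1, and 0 counts in WT, against 3, 3, and 4 counts in the mutant, a ratio of 8.72 (interval 1.24 to 378). These 3 leaned to the mutant, but the intervals cover counting error only. *meu6*+, a gene of chromosome segregation, had 3, 0, and 6 counts in WT, against 19, 11, and 0 counts in the mutant, so its libraries disagreed within each genotype. *rec6*+, of the break machinery, had 4, 6, and 15 counts in WT, against 4, 8, and 3 in the mutant, and *rec27*+, of the linear elements, had 0, 2, and 2 in WT, against 0, 0, and 1 in the mutant. *mde3*+, which encodes a protein kinase, and *mde5*+, an alpha-amylase homolog, had 0 counts in all 6 libraries, below the floor of 3 counts per library given above.

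Many of the genes at or near 0 lie inside another gene. In ASM294v3, 9 of the 64 genes are covered over more than 95% of their length by a gene of the table on the other strand, namely *mde2*+, *mde3*+, *mde5*+, *mde7*+, *meu6*+, *meu27*+, *rec15*+, *rec27*+, and *spo6*+. Of these 9, 8 had a count of 0 in at least 1 WT library, against 1 of the other 55 genes, and 6 were not tested, against 3 of the other 55. Over the whole table, 20.0% of 245 such covered genes were not tested, beside 3.02% of the other 4864 genes with a position. No source used here says if strand entered the counting, and reads of a covered gene and of its partner cannot be told apart if it did not, so *mde7*+ and *spo6*+ are uncertain in this respect. Their partners did not pass the test: *SPCC320.06*, which covers *mde7*+, had a log2 fold change of −0.05, and *lam2*+, which covers *spo6*+, had 0.12. *mde4*+ is covered over 55.3% by *atg7*+, which had 0.32 and did not pass (adjusted *P* = 0.24). The other 4 genes called higher are covered over at most 6.03% by a listed gene, and the 4 called lower by none. RefSeq genes absent from the table cover more on the other strand, so that any RefSeq gene covers *mcp3*+ over 93.5%, *mde4*+ over 89.1%, *meu32*+ over 81.4%, *meu7*+ over 47.4%, *mcp1*+ over 42.1%, and *spo15*+ over 22.0%. The part of this overlap in the low counts was not tested.

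**Figure D3:**
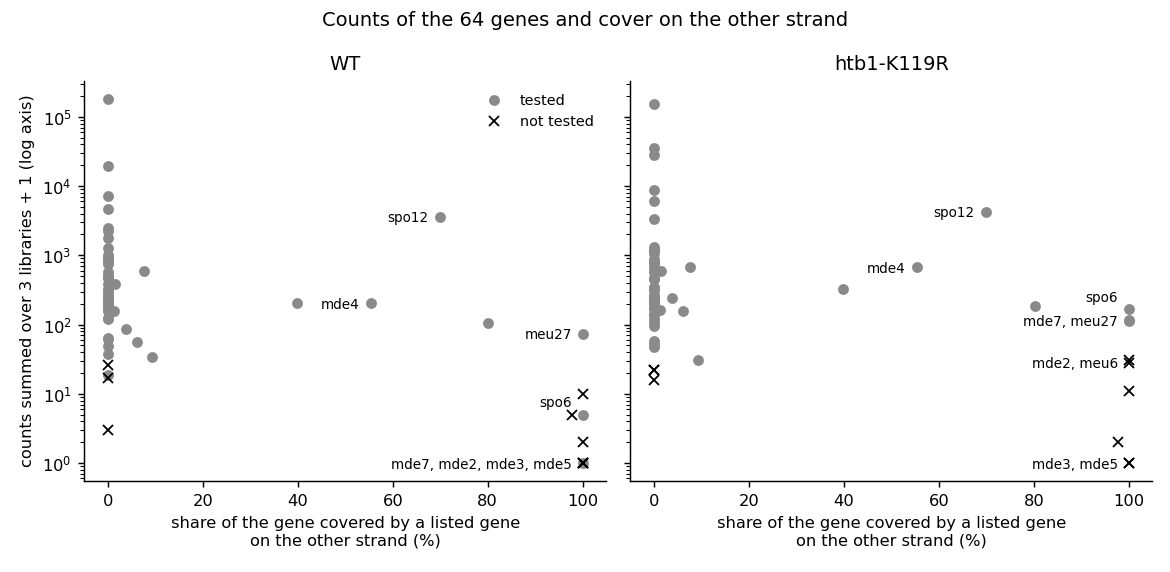
Counts of the 64 genes summed over the 3 libraries of a genotype, plus 1 (log axis), against the percentage of the gene that a listed gene covers on the other strand (crosses, not tested). The points at 95% to 100% hold *mde7*+ and *spo6*+, which move from 0 and 4 counts in WT to 112 and 165 counts in *htb1-K119R*.

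Levels between genes can be compared only per length, with the deposited FPKM. In WT the median of the 64 genes was 2.23 FPKM, beside 10.8 FPKM over all genes, and in *htb1-K119R* it was 3.0 beside 11.6 FPKM. *mcp60*+ (1471 FPKM in WT) and *isp6*+ (170 FPKM) were highest in WT, followed by *spo20*+ and *mes1*+ (35.8 FPKM). *meu7*+ was at 20.1 ± 0.915 FPKM in WT, below *isp3*+ (23.9 FPKM), and at 273 ± 14.3 FPKM in *htb1-K119R*, above *isp6*+ (232 FPKM) and second only to *mcp60*+ there. Most other called genes were low in both genotypes: *mde4*+ reached 3.71 FPKM, *spo6*+ 1.78, *spo5*+ 1.43, *mde7*+ 0.889, and *spo15*+ 0.701 FPKM in *htb1-K119R*. By group, the median WT level was 0.687 FPKM for regulators, 0.967 for recombination, 3.81 for movement and segregation, 4.17 for spore formation, and 17.1 for metabolism and transport.

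**Figure D4:**
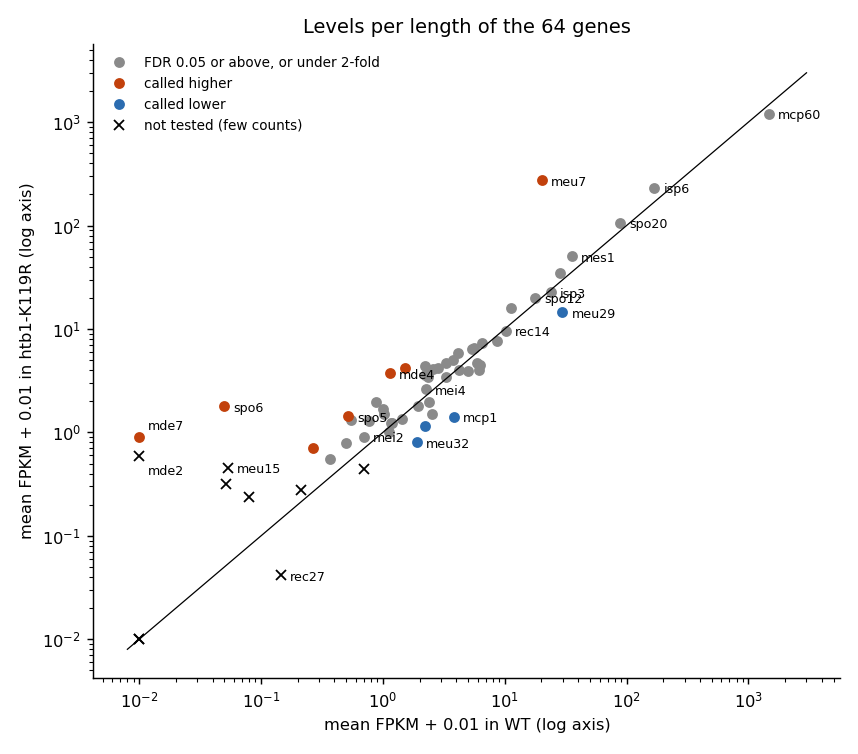
Mean FPKM plus 0.01 of each of the 64 genes in WT and in *htb1-K119R* (3 libraries each, log axes), with the line of equal levels. *meu7*+ lies far above the line at 20.1 and 273 FPKM, and the median regulator is at 0.687 FPKM in WT.

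The other genes of the pathway were read from 4 lists of 44 genes, of which 41 matched the table and 34 were tested. The lists were chosen with earlier results of these data known, so their shares beside all genes are a description only. Of the tested ones, 5 were called higher and 1 was called lower (14.7% and 2.94%), beside 4.71% and 3.64% of all genes. At an FDR below 0.05 alone, 11 were higher and 2 were lower (32.4% and 5.88%), beside 18.6% and 19.3% of all genes. The higher count depends on the libraries, since it was 19 without WT replicate 3 and 7 without *htb1-K119R* replicate 1 or 2. The lower count was 5 without WT replicate 3, 0 without WT replicate 2 or *htb1-K119R* replicate 1, and 1 without *htb1-K119R* replicate 2 or 3. At the entry to meiosis, *ste11*+ rose from 41.8 ± 1.05 to 64.6 ± 4.03 CPM (log2 fold change 0.63 with SE 0.098 and adjusted *P* = 0.000748), with all mutant libraries higher. *atf21*+, for a bZIP transcription factor, rose by 1.33 (adjusted *P* = 0.000624). *pat1*+, for the kinase that blocks meiosis, did not pass (0.16, adjusted *P* = 0.271).

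In the RNA elimination list, 3 of 11 genes were higher at an FDR below 0.05 (27.3%, beside 18.6% of all genes). *rrp6*+, which encodes the nuclear exosome nuclease, had 0.987, 0.861, and 1.07 CPM in WT, against 6.35, 7.30, and 8.52 CPM in the mutant. It rose by 2.90 on the log2 scale (SE 0.232, adjusted *P* = 1.14e-05), the largest change among the 4 lists. *mtl1*+, which encodes the RNA helicase that works with it, rose from 3.03 ± 0.134 to 6.76 ± 1.01 CPM (log2 fold change 1.16, adjusted *P* = 0.00113). *mmi1*+, for the protein that binds TNAAAC, had an estimate of 0.33 without overlap (adjusted *P* = 0.0587, but 0.00255 without WT replicate 3 and up to 0.221 over the alternatives). In the list of meiotic chromosomes, *sgo1*+, for the protector of centromeric cohesin, rose from 0.152, 0.144, and 0.248 CPM in WT to 1.27, 1.1, and 1.19 CPM (adjusted *P* = 0.00106). It is covered over its whole length by a listed gene on the other strand, and only its mutant libraries had enough counts for the test. *hop1*+, for a protein of the chromosome axis, fell from 2.08 ± 0.69 to 0.849 ± 0.165 CPM (log2 fold change −1.24, adjusted *P* = 0.0204), and 5 of 14 alternatives did not keep its call. Of 9 genes of spore membrane and wall, 5 were higher at an FDR below 0.05 (55.6%, beside 18.6% of all genes), with *mok13*+, an alpha-glucan synthase gene, at 14.8 ± 0.97 and 34.9 ± 2.62 CPM (log2 fold change 1.23, adjusted *P* = 3.53e-05).

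The promoter letters were set beside these changes as a description. A Mei4 match (GTAAACA or GTAAATA, either strand) lies in the window of 37 of the 64 genes (57.8%), beside 29.3% of the windows of all 5124 protein-coding genes of RefSeq. With GTAAACA alone the shares were 48.4% and 16.5%. The set was chosen by name, and *mde* names mark dependence on Mei4, so these differences are partly set by the choice of genes. Of the 7 genes called higher 5 hold a match, and of the 4 called lower 3 do. The Ste11 core TTCTTTG lies in 10.9% of the windows of the set and in 9.95% of all. The TNAAAC density of the transcript had a median of 2.0 per kb in the set and 1.64 per kb in all genes. It was 2.19 per kb in the genes called higher and 3.38 per kb in those called lower, and *spo2*+ (called higher), *mde2*+, and *isp4*+ hold no TNAAAC at all.

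**Figure D5:**
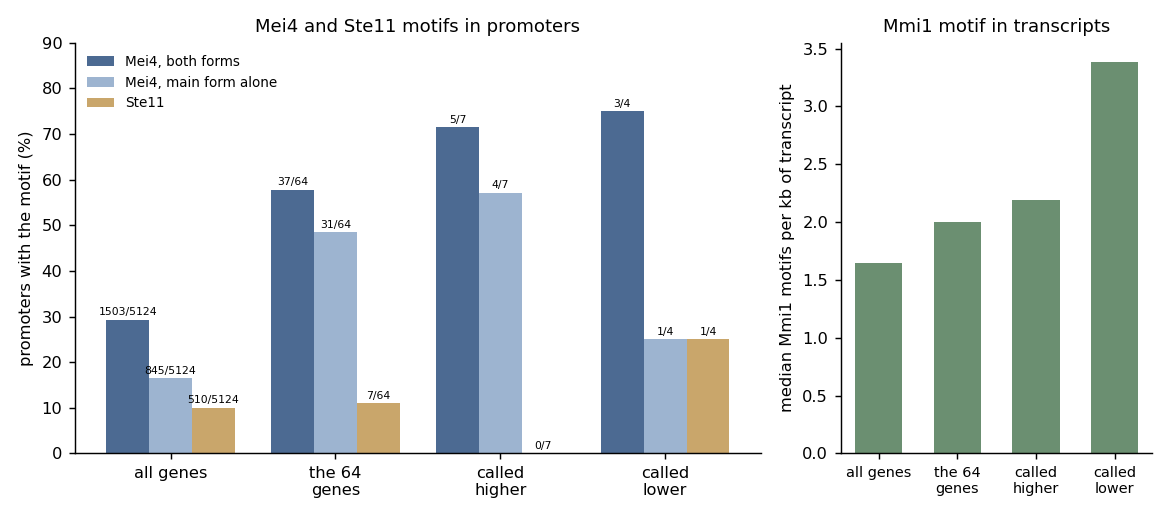
Left, percentage of windows (250 bases before to 50 after the transcript start) with a Mei4 or Ste11 motif, for all genes, the 64 genes, and those called higher or lower, with the counts above the bars. Right, median Mmi1 motifs per kb of transcript, which is 1.64 in all genes and 2.0 in the set.

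Beside the 11 called genes, the flanking genes called in the same direction were *psm1*+ and *vps1302*+. At the FDR alone, *bud32*+ (−0.62) and *rib1*+ (−0.38) on the sides of *meu32*+ were lower like it, and *SPCC320.05* (0.32) beside *mde7*+ was higher. Others went the opposite way from the called gene, namely both flanks of *meu7*+ given above, *SPBC1778.03c* beside *spo6*+ (−0.63), *SPBC6B1.03c* beside *mde4*+ (−0.70), *spb1*+ beside *mcp1*+ (0.55), and *och1*+ beside *mcp3*+ (0.34). *psm1*+, which encodes the Smc1 subunit of cohesin, lies 2461 bases downstream of *spo5*+ on the same strand. It had 3.19, 2.87, and 2.52 CPM in WT, against 8.32, 8.24, and 8.06 CPM in the mutant (log2 fold change 1.53 with SE 0.18 and adjusted *P* = 0.000124). *vps1302*+ lies 206 bases upstream of *spo2*+ on the same strand and was higher by 1.23 (SE 0.217, adjusted *P* = 0.00163).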

How the data were processed

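RNA-seq of 3 WT and 3 *htb1-K119R* cultures was analyzed. The authors enriched mRNA with oligo(dT), mapped reads with HISAT2 to Ensembl release 45, and deposited unnormalized counts and FPKM values (StringTie) per gene and library. RSEM is also listed in the submitters' processing notes, with no role, and strand use is not given in the sources used here. The authors' mean FPKM, log2 fold change, p-value, and FDR columns were not used. Counts were fitted with edgeR 4.0.16 (R 4.3.3; TMM, filterByExpr, quasi-likelihood F test, genotype as the only factor, Benjamini-Hochberg over all genes) and called at 2-fold with an FDR under 0.05. The SE given with edgeR estimates is the absolute log2 fold change divided by the square root of the F statistic. Alternatives used DESeq2 1.42.0 and limma 3.58.1. The fit code was also run on simulated counts, which had no outlying library, so that run does not test the calls made here. With 3 against 3 libraries an exact permutation test cannot go below 0.1. Positions, motifs, and GC content come from RefSeq ASM294v3 by gene ID (5109 of 5184 genes, all 64 members). The table carries no coordinates, so the builds could not be compared. Roles follow the table's gene descriptions and RefSeq products.

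The genes named are those called, a fixed list of core genes, the extremes of each role group, the 3 largest FDR-only changes per direction, the untested genes, and of the pathway lists *ste11*+, *pat1*+, *mmi1*+, and the called genes. Neighboring and covering genes, *mcp2*+, *spo12*+, and *spo13*+ were added once values were known. The members and lists were chosen with earlier results of these data known.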

Additional observations from a re-analysis of the deposited data

How the results depend on the processing

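The 11 called genes kept their direction in each alternative that tested them, and *meu7*+, *mde4*+, *mcp1*+, *meu29*+, and *mcp3*+ kept an FDR below 0.05 in every fit. Few counts limit *spo6*+, *mde7*+, *spo2*+, *spo5*+, *meu32*+, and the untested genes. Of 7 genes called higher, 4 remained testable and called when 10 counts in every library were required, and 3 with limma on log2(FPKM + 1) or log2(FPKM + 0.1), which need a mean FPKM of 1. Of 4 called lower, 3 were called when 10 counts in every library were required. With log2(FPKM + 1), a scale that shrinks low genes, 0 of the 4 passed 2-fold. The count lower at an FDR below 0.05 was 5 with either limma fit and with an FDR below 0.01, and 5 to 9 when each library was left out. DESeq2 called 8 higher and 4 lower, and no filter 9 and 4. The share of all genes called was computed only for the main fit. Counts from the alternatives are therefore not read as a trait of the set or of the pathway lists. The median of all genes was 0.152 with library totals in place of TMM, and 0.150 and 0.170 with limma (+ 1 and + 0.1), beside −0.0058 in the main fit. The medians of the set below carry that shift in those fits.

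The median log2 fold change of the set (0.14) was 0.24 with DESeq2, 0.31 with library totals, 0.23 without a filter, 0.11 with 10 counts in every library, 0.20 and 0.23 with limma (+ 1 and + 0.1), 0.012 and 0.086 with the correction for GC content and length alone and with the replicate block, and 0.093 to 0.184 when each library was left out. For the other genes of the pathway, 7 and 6 were higher with the limma fits and 6 at an FDR below 0.01, and 7 to 19 without each library. Lower were 1 with library totals, 4 with the GC and length correction (with or without the block), 0 with the limma fits and at an FDR below 0.01, and 0 to 5 without each library. The cause was not tested. Among the named genes run under each alternative, signs turned for 3 near 0 that did not pass: *mei2*+ to −0.019 and −0.020, *mei4*+ to −0.031 and −0.032, and *spo3*+ to −0.074 and −0.062 with the GC and length correction without and with the block, and *mei4*+ to −0.037 without WT replicate 2 (−0.037 to 0.133 when each library was left out).

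Libraries with the same replicate number correlated in their deviations by −0.264, 0.421, and 0.287, so the numbers do not pair them. With the replicate block, 7 were called higher and 4 lower, and 12 were higher and 8 lower at an FDR below 0.05 alone. No share of all genes was computed for that fit.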
